A study of Oncorhynchus mykiss with 18 samples.

Results

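The insulin-like growth factor axis of rainbow trout (Oncorhynchus mykiss) was followed through 5 of its genes in whole alevins exposed to the synthetic estrogen 17α-ethinylestradiol (EE2). The genes are igfbp7 and igfbp5, which encode binding proteins, igf2b, which encodes a ligand, and igf1ra and igf2r, which encode receptors. These 5 of the 61973 features (25139 genes, and 36834 transcripts that matched no gene of the table) were taken by their symbols in the RefSeq rainbow trout gene table, and each is represented by 1 transcript in the files. They were chosen with their values already known, so their levels and fold changes are given as descriptions. Test calls on these 5 genes are listed further below, but nothing is read from them. Where the text sets the 5 genes beside all genes, it means all features tested, transcripts that matched no gene included.

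Insulin-like growth factors are small secreted ligands that act through a receptor tyrosine kinase of the insulin receptor family. Binding proteins in blood and extracellular matrix hold the ligands, lengthen their life and limit or direct their access to the receptor, and proteases release them again. In fish the axis is driven by growth hormone, is made largely by the liver and also locally in muscle, cartilage and bone, and sets the growth of the body and skeleton.

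Alevins were kept from hatch for 96 h in flowing water at 14 °C and taken at 4 days post-hatch. The 6 groups were the solvent control (0.01% DMSO) and EE2 at concentrations of 1.13 ng/L, 1.57 ng/L, 6.22 ng/L, 16.3 ng/L and 55.1 ng/L. Each group had 3 libraries, A, B and C, and each library was made from polyadenylated RNA of 3 whole alevins pooled. The labels name no strain, sex or separate tank for the pools of a group, so the spread between libraries may be technical. A further, higher concentration that the design mentions was not analysed here.

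Libraries held between 12658946 and 32851570 estimated counts. They were of 2 kinds. The libraries of 1.13, 1.57 and 16.3 ng/L held 19679734 to 32851570 counts, against 12658946 to 17076432 in those of 6.22 ng/L, 55.1 ng/L and solvent. The difference between transcript length and effective length, which follows the fragment length, had a median of 229 to 247 bases in the first kind and 172 to 208 bases in the second. For 1.13, 1.57 and 16.3 ng/L against solvent, concentration and kind of library therefore cannot be told apart. The values of 1.13 and 1.57 ng/L are also set against 16.3 ng/L, which shares their kind. Within a kind the match was not complete. The length difference was 229 to 235 bases at 16.3 ng/L, against 234 to 247 and 235 to 243 bases at 1.13 and 1.57 ng/L. It was 200 to 208 bases at 6.22 ng/L, against 179 to 195 bases in solvent. Comparisons within a kind are therefore not free of it, and its part was not tested. The estrogen receptor gene esr1 averaged 2.83 CPM (counts scaled to a library of fixed size) in solvent and 6.71, 13.4, 24.3, 35 and 37.9 CPM in the 5 EE2 groups from low to high. The egg envelope gene zp2.3 and the yolk precursor gene vtg3 averaged 687 and 24.4 CPM at 55.1 ng/L, against 0.0436 and 0.0468 CPM in solvent. Markers of muscle, bone, liver, epidermis, blood, vessel and nerve were all present.

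The binding protein gene igfbp7 was higher in every library of 1.13 and 1.57 ng/L than in any other library. Its product, also called IGFBP-related protein 1, binds insulin-like growth factors weakly and is a secreted matrix protein of vessels and connective tissue in mammals. The solvent libraries A, B and C had 2.82, 3.3 and 4.14 CPM. The 1.13 ng/L libraries had 11.2, 11.9 and 10.1 CPM and the 1.57 ng/L libraries 12.1, 12 and 11.2 CPM. These 6 libraries lay close together and did not overlap with solvent. The 6.22 ng/L libraries had 4.7, 3.2 and 2.81 CPM, the 16.3 ng/L libraries 4.27, 5.82 and 3.65 CPM, and the 55.1 ng/L libraries 3.87, 3.3 and 2.23 CPM. All 3 of these groups overlapped with solvent. At 1.13 and 1.57 ng/L the fitted log2 fold change against solvent was 1.69 and 1.78 (SE 0.23 each), or 3.23-fold and 3.43-fold. At the 3 higher concentrations, from low to high, it was 0.06, 0.42 and −0.12. Against 16.3 ng/L, among libraries of the same kind, it was 1.27 (SE 0.22) at 1.13 ng/L and 1.36 (SE 0.22) at 1.57 ng/L.

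The other binding protein gene, igfbp5, had the same order at its top and a smaller range. In mammals IGFBP5 is a major binding protein of bone, where it attaches to matrix, and of differentiating muscle. The solvent libraries had 10.8, 10.8 and 11.9 CPM. The 1.13 ng/L libraries had 17.9, 18.1 and 17.4 CPM and the 1.57 ng/L libraries 19.3, 18.6 and 17.2 CPM. All 6 were above every other library of the study. The 6.22 ng/L libraries had 9.72, 10.7 and 8.5 CPM, all below the solvent libraries but only narrowly (10.7 against 10.8 CPM). The 16.3 ng/L libraries had 12.4, 11.8 and 14.4 CPM and the 55.1 ng/L libraries 12, 11.1 and 9.9 CPM, and both overlapped with solvent. The log2 fold change against solvent was 0.67 (SE 0.10) at 1.13 ng/L and 0.71 (SE 0.10) at 1.57 ng/L, a 1.59-fold and a 1.64-fold higher level. At the 3 higher concentrations, from low to high, it was −0.21, 0.20 and −0.02. Against 16.3 ng/L it was 0.47 at 1.13 ng/L and 0.51 at 1.57 ng/L (SE 0.10 each).

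The ligand gene igf2b encodes insulin-like growth factor 2, the form associated with embryonic and early growth. The solvent libraries had 3.16, 4.66 and 5.91 CPM, the widest spread among the 6 groups for this gene. The 1.13 ng/L libraries had 7.3, 7.3 and 7.09 CPM and the 1.57 ng/L libraries 6.01, 6.96 and 6.46 CPM. Both groups were above solvent, 1.57 ng/L only narrowly. The 6.22 ng/L libraries had 5.42, 4.89 and 6.05 CPM, the 16.3 ng/L libraries 7.42, 7.91 and 5.46 CPM, and the 55.1 ng/L libraries 5.04, 5.21 and 5.94 CPM. Each of these groups overlapped with solvent. Against solvent its log2 fold change at 1.13, 1.57 and 16.3 ng/L was 0.66, 0.50 and 0.60 (SE 0.19 each), and at 6.22 and 55.1 ng/L 0.25 and 0.23. The direct log2 fold change was 0.06 (SE 0.18) for 1.13 against 16.3 ng/L and −0.10 (SE 0.18) for 1.57 against 16.3 ng/L. Neither was larger than its SE.

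The receptor genes had the smallest fold changes of the 5 at 1.13 ng/L. The gene igf1ra encodes a type 1 receptor, the tyrosine kinase that carries the growth signal. Its solvent libraries had 5.22, 4.59 and 3.78 CPM, its 1.13 ng/L libraries 6.59, 6.81 and 6.23 CPM, and its 1.57 ng/L libraries 6.85, 7.15 and 5.62 CPM. The 6 exposed libraries were above all 3 solvent libraries. The 6.22 ng/L libraries had 4.23, 4.46 and 4.18 CPM, the 16.3 ng/L libraries 4.61, 6.06 and 5.41 CPM, and the 55.1 ng/L libraries 4.16, 4.42 and 3.55 CPM, all overlapping with solvent. The log2 fold change against solvent was 0.53 (SE 0.14) at both 1.13 and 1.57 ng/L. Against 16.3 ng/L it was 0.29 (SE 0.14) for 1.13 ng/L and 0.28 (SE 0.14) for 1.57 ng/L.

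The gene igf2r encodes the cation-independent mannose 6-phosphate receptor, which in mammals takes up and degrades insulin-like growth factor 2 and also sorts lysosomal enzymes. Its solvent libraries had 14.7, 14.1 and 14.7 CPM, its 1.13 ng/L libraries 22, 20.3 and 19.7 CPM, and its 1.57 ng/L libraries 17.7, 18.2 and 19.2 CPM. Its 16.3 ng/L libraries had 19.3, 16.6 and 16.5 CPM. All 9 of these exposed libraries lay above the solvent libraries. The 6.22 ng/L libraries had 16.3, 13.2 and 10.8 CPM and the 55.1 ng/L libraries 12.6, 14.8 and 16.7 CPM, on both sides of solvent. The log2 fold change against solvent at 1.13, 1.57 and 16.3 ng/L was 0.51, 0.34 and 0.27 (SE 0.13 each). Against 16.3 ng/L it was 0.24 (SE 0.12) for 1.13 ng/L and 0.07 (SE 0.12) for 1.57 ng/L. This is the longest of the 5 transcripts, at 9846 bases, and with the trend of fold change on transcript length removed its values at 1.13 and 1.57 ng/L were 0.24 and 0.12. For igf1ra, with 5104 bases, the same step gave 0.37 and 0.41, and for igfbp7, with 1118 bases, 1.65 and 1.74. It also moved the median of all genes to −0.0904 and −0.0656, so these values are to be read relative to those shifts.

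**Figure D1:**
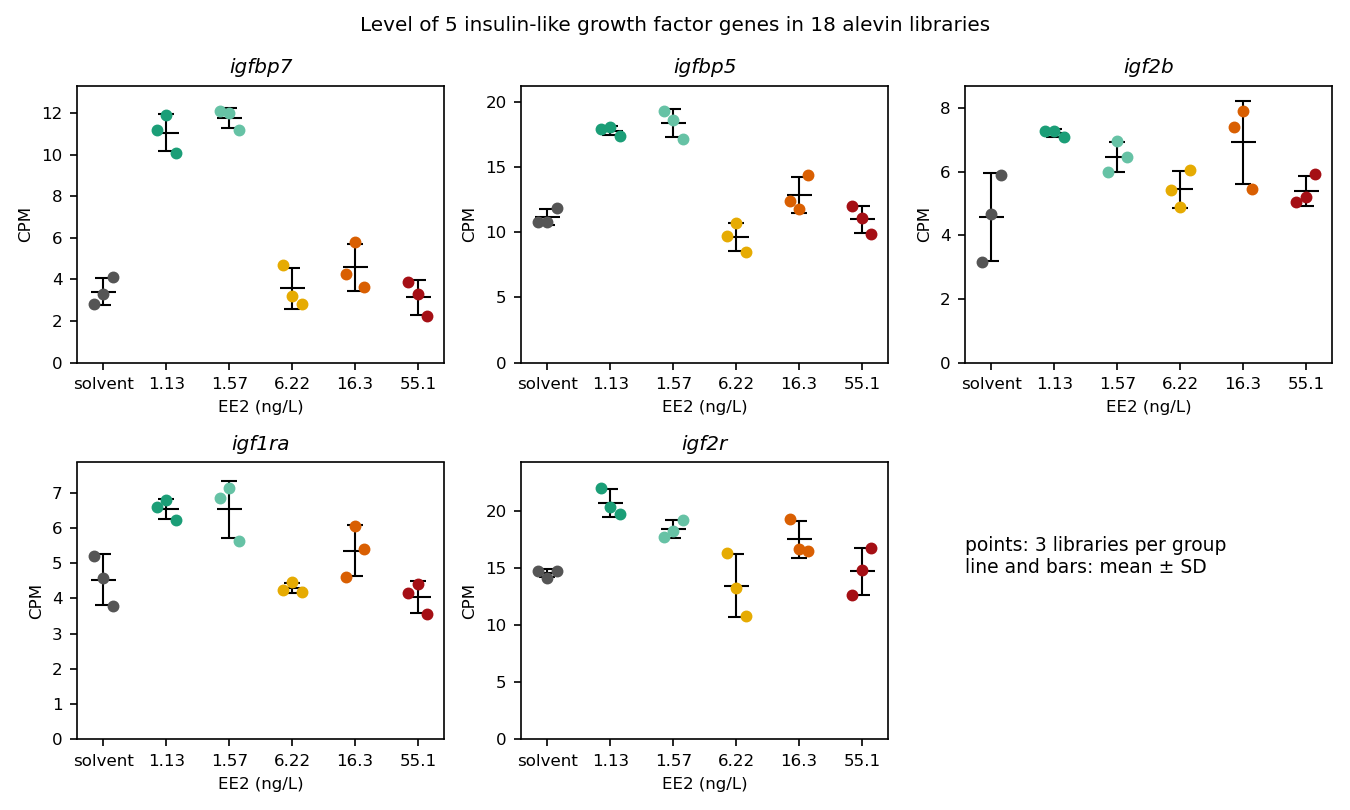
Level in CPM of each of the 5 genes, with solvent and the 5 EE2 concentrations in ng/L on the x axis. Points are libraries and the line with bars is the mean ± SD (n = 3); igfbp7 at 1.13 and 1.57 ng/L lies between 10.1 and 12.1 CPM, above all other libraries, while the igf2b groups overlap more.

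Set side by side, the order of the groups differed between genes. For igfbp7 the means were 3.42 ± 0.67 CPM in solvent and 11.1 ± 0.89, 11.8 ± 0.5, 3.57 ± 0.996, 4.58 ± 1.12 and 3.13 ± 0.834 CPM in the EE2 groups from low to high (SD, n = 3 each). The only neighbours in its order whose libraries did not overlap were 1.13 ng/L and, next below it, 16.3 ng/L, and the same single gap stood in the order of igfbp5. For igf2b and igf1ra no neighbouring groups separated. For igf2r the 1.13 ng/L libraries, at 20.6 ± 1.18 CPM, were separate from those of 1.57 ng/L, at 18.4 ± 0.744 CPM (SD, n = 3 each). How many of all features have such gaps, or libraries apart from solvent as above, was not counted. Nothing is read from these gaps. No gene had its mean rising or falling steadily with concentration, unlike esr1.

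Calls of the edgeR quasi-likelihood test at an adjusted p under 0.05 are counted here only beside their background. At 1.13 ng/L against solvent 4.89% of the 46999 features tested were called higher, and so were all 5 of these genes. The median log2 fold change of the 5 was 0.66, against 0.00 over all features tested. At 1.57 ng/L 2.85% were called higher, with igfbp7, igfbp5 and igf1ra among them. At the 3 higher concentrations, from low to high, 0.0723%, 0.366% and 0.372% were called in either direction, and none of the 5. Against 16.3 ng/L, 2.36% were called higher at 1.13 ng/L and 0.540% at 1.57 ng/L, with igfbp7 and igfbp5 in both counts. These comparisons share their solvent or their 16.3 ng/L libraries, the genes were picked knowing these values, and nothing is read from the counts.

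Several of these calls did not hold under other settings. Those of igf1ra and igf2r at 1.13 ng/L and of igf1ra at 1.57 ng/L were lost with the length trend removed. The igf2b call at 1.13 ng/L was lost with no filter on low counts, with the replicate letter as a block and with the 2 groups fitted alone. The igf1ra calls were also lost with the 2 groups alone, and at 1.57 ng/L with RLE size factors and with no filter. Against 16.3 ng/L, the 2 groups alone lost igfbp5 at both concentrations and igfbp7 at 1.57 ng/L. Each of the 18 libraries was also left out in turn. These fits reuse the libraries on which the genes were picked, so a call that held is no separate support. The calls of igfbp7 and igfbp5 against solvent held in all 18 fits at both concentrations. That of igf2b at 1.13 ng/L was met in 3 of the 18 fits, those without 16.3 ng/L B, 16.3 ng/L C or solvent C. The call of igf1ra was met in 14 fits at 1.13 ng/L, lost without 1.13 ng/L A or B or without solvent B or C, and in 2 fits at 1.57 ng/L, those without 1.57 ng/L C or 16.3 ng/L A. That of igf2r at 1.13 ng/L was met in 14 fits, lost without 1.13 ng/L A or B or without solvent A or B. Against 16.3 ng/L, igfbp7 kept its call in 18 fits at 1.13 ng/L and in 15 at 1.57 ng/L, and lost the second without 1.57 ng/L B, 16.3 ng/L A or 16.3 ng/L C. For igfbp5 it was 16 fits at 1.13 ng/L, lost without 1.13 ng/L B or 16.3 ng/L B, and 14 at 1.57 ng/L, lost without 1.57 ng/L A or B or 16.3 ng/L A or B.

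**Figure D2:**
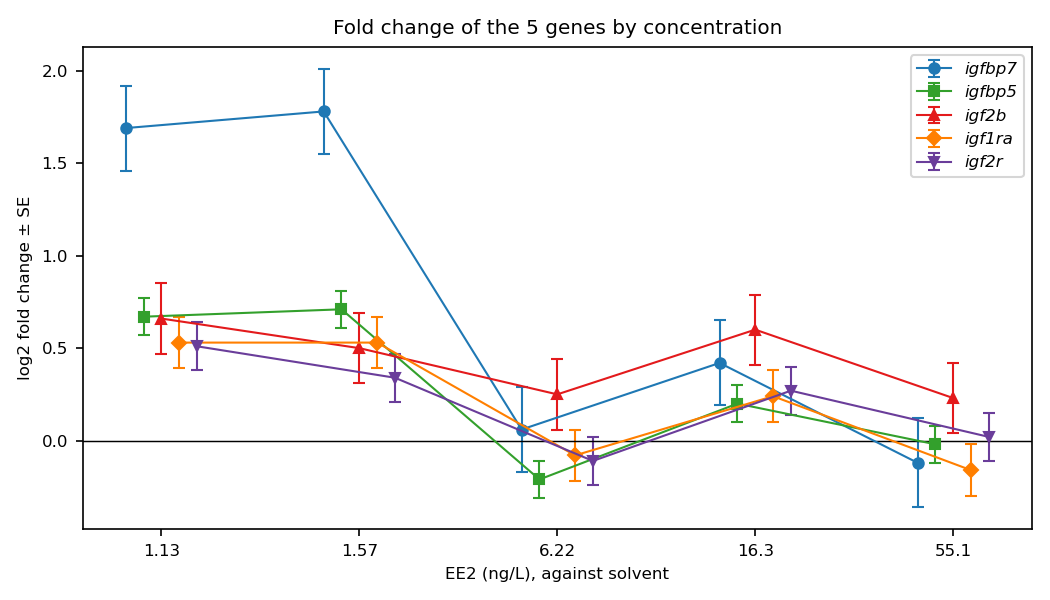
Log2 fold change against solvent (y axis, edgeR, points with ± SE) of the 5 genes at each EE2 concentration in ng/L (x axis). Only igfbp7 lies above 1, at 1.69 and 1.78 at the 2 lowest concentrations, and the 5 genes lie between −0.21 and 0.25 at 6.22 ng/L.

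The fold changes in the authors' deposited table, which is per transcript and in log2, differed from these values by at most 0.0271 over the 25 pairs of gene and concentration. Both come from the same libraries and each gene is 1 transcript, so this closeness is no separate support. At 1.13 ng/L all 5 genes passed in the authors' deposited table, where 0.00866 for igf1ra was the highest adjusted p. The genes were picked on these same libraries, and the share of all transcripts that passed there was not counted. Nothing is read from these passes. In the authors' deposited table igfbp7 had 1.7 (SE 0.219) at 1.13 ng/L and 1.78 (SE 0.219) at 1.57 ng/L. In the authors' deposited table the adjusted p at 1.57 ng/L was 0.0652 for igf2b and 0.059 for igf2r, and 0.0179 for igf1ra. In the authors' deposited table the adjusted p of all 5 genes was above the threshold of 0.05 at the 3 higher concentrations, with 0.0625 for igf2b at 16.3 ng/L the lowest.

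Levels of different genes were compared per length, in TPM (counts divided by length and scaled to a fixed total). The 10 binding protein genes listed were forms of igfbp1, igfbp2, igfbp3, igfbp5, igfbp6 and igfbp7, and igfals, the acid-labile subunit that joins the circulating complex. Shares are of these 10 only, and no igfbp4 is among them. Of their summed TPM, igfbp7 made up 14.6 ± 1.5% in solvent. In the EE2 groups from low to high igfbp7 made up 33.8 ± 0.362, 31.9 ± 2.09, 15.1 ± 3.15, 15 ± 2.35 and 12.3 ± 1.12% (SD, n = 3 each). It was the largest of the 10 at 1.13 and 1.57 ng/L, with 18.8 and 18.7 TPM. In the other 4 groups igfbp2, a main circulating binding protein of fish, was the largest, with 9.06 TPM in solvent and 9.54, 13.6 and 10.9 TPM at the 3 higher concentrations from low to high; igfbp2 is named after its values were seen. The share of igfbp5 was 17.9 ± 2.24% in solvent and 21 ± 1.5, 19 ± 0.881, 16.1 ± 2.62, 16.3 ± 2.63 and 16.4 ± 1.33% in the EE2 groups from low to high (SD, n = 3 each). The summed TPM of the 10 genes ranged from 33.3 to 41.5 in solvent libraries and from 51 to 60.7 and 56.5 to 62.1 in those of 1.13 and 1.57 ng/L. At the 3 higher concentrations, from low to high, it ranged from 27.7 to 34.1, 40 to 45.9 and 27.6 to 37.9. Per length igf1ra was the lowest of the 5 genes in every group, with mean TPM between 1.04 and 1.95 in the EE2 groups and 1.36 in solvent.

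**Figure D3:**
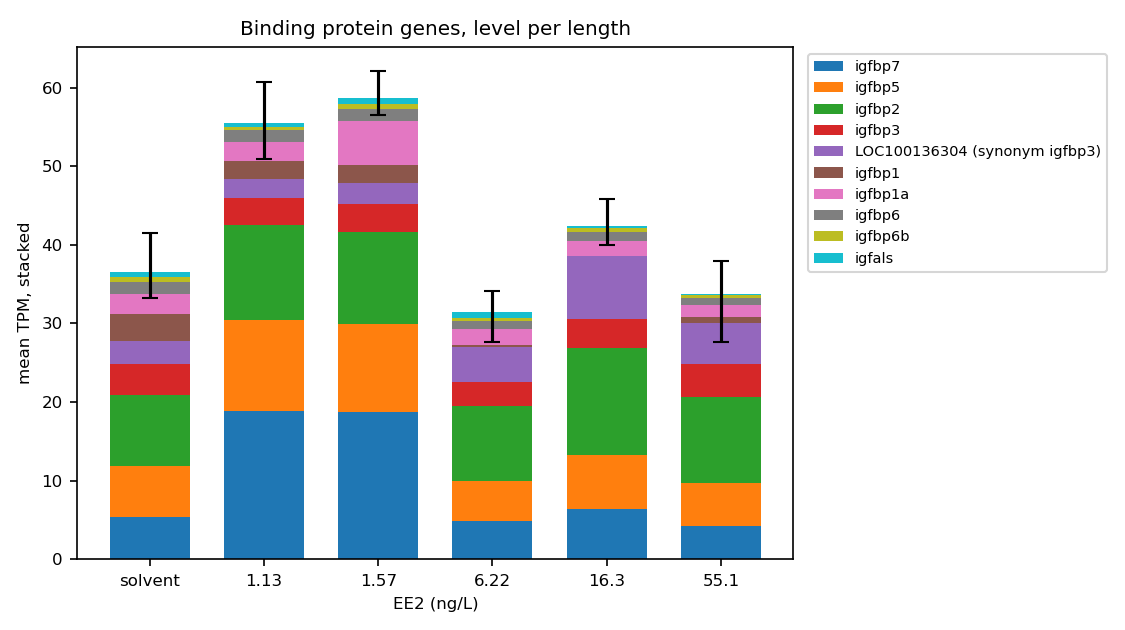
Mean TPM of 10 binding protein genes (y axis, stacked, 3 libraries per group) in solvent and at each EE2 concentration in ng/L (x axis), with the bar giving the range of the summed TPM over libraries. The igfbp7 layer is 18.8 and 18.7 TPM at 1.13 and 1.57 ng/L and 4.2 to 6.38 TPM in the other 4 groups.

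The rest of the axis was read from lists of ligands, binding proteins, their proteases, the growth hormone system and signalling genes below the receptors. Of 48 further genes 43 were expressed enough to be tested. In edgeR's quasi-likelihood test with Benjamini-Hochberg adjustment, 0 of the 43 passed against solvent at any concentration, beside 8.06, 4.27, 0.0723, 0.366 and 0.372% of all genes tested from low to high concentration. At an unadjusted p under 0.05 there were 8, 5, 5, 10 and 7 of them, beside 23.5, 20.2, 7.68, 12.1 and 10.9% of all genes. DESeq2 called 2, 0, 0, 3 and 1 of them, and 6431, 4685, 329, 1068 and 816 of all genes. It was fitted on every feature with a count, not on the 46999 features of the edgeR test. Its counts are therefore given without a share, and nothing is read from them. The median log2 fold change of the 43 was between −0.05 and 0.05 at all 5 concentrations, where that of all genes was between −0.01 and 0.00.

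Among ligands, igf1 encodes the main growth hormone-driven factor. It averaged 7.24 ± 0.759 CPM in solvent and 5.82 ± 0.704, 6.92 ± 1.03, 6.93 ± 0.433, 7 ± 0.555 and 6.17 ± 0.716 CPM in the EE2 groups from low to high (SD, n = 3 each). Its log2 fold change at 1.13 ng/L was −0.31 (edgeR adjusted p = 0.172). With the length trend removed it was −0.45, with an edgeR adjusted p of 0.0432, but that setting moved the median of all genes to −0.0904 and the share of calls that were higher to 35%, against 60.6% without it. A near copy annotated igf1 (LOC100136741) averaged between 2.08 ± 2.04 and 4.68 ± 0.54 CPM in the EE2 groups and 3.55 ± 1.32 CPM in solvent (SD, n = 3 each), and was listed at 0 in a library of 1.57 and of 6.22 ng/L. How reads were divided between such copies is uncertain. Of the proteases and their inhibitors, adam12, which in mammals cleaves binding proteins, had a log2 fold change of 0.65 at 1.13 ng/L (edgeR adjusted p = 0.0698). It passed in DESeq2 (adjusted p = 0.0219) and in edgeR without solvent B (adjusted p = 0.0205), and under no other setting. The log2 fold change of stc1, a stanniocalcin, was 0.31 at 1.13 ng/L. Of 13 signalling genes the 2 most highly expressed were mtor, the growth-controlling kinase, and pdpk1b, a kinase that activates Akt, with log2 fold changes of 0.16 and −0.05 at 1.13 ng/L.

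Against 16.3 ng/L, within 1 kind of library, 3 of the 43 genes passed the edgeR test at 1.13 ng/L, beside 4.30% of all genes, and 1 at 1.57 ng/L, beside 0.755%. At an unadjusted p under 0.05 there were 11 and 12 of the 43, beside 18 and 11.8% of all genes. Annotated as a second igfbp3, LOC100136304 had 1.49 ± 0.342 CPM at 1.13 ng/L and 1.76 ± 0.22 CPM at 1.57 ng/L, against 6.01 ± 0.573 CPM at 16.3 ng/L (SD, n = 3 each). In mammals IGFBP3 is the main carrier in the circulating complex. Its log2 fold change was −2.01 (SE 0.34, edgeR adjusted p = 0.00478) at 1.13 ng/L and −1.77 (SE 0.34, edgeR adjusted p = 0.0284) at 1.57 ng/L, the opposite sign to igfbp7 and igfbp5 in the same libraries. The first held in all 18 fits that left out a library. The second was lost in 6 of them, those without any 1 library of 1.57 or of 16.3 ng/L, with an edgeR adjusted p up to 0.117. LOC100136304 averaged 1.89 CPM in solvent and 3.55 and 4.02 CPM at 6.22 and 55.1 ng/L. Against solvent its log2 fold change was −0.34 and −0.11 at 1.13 and 1.57 ng/L, and 1.67 at 16.3 ng/L. The last had an edgeR adjusted p of 0.0576. It passed in DESeq2 (adjusted p = 0.000354) and in edgeR with the 2 groups alone (adjusted p = 0.0329). Without 55.1 ng/L A or C it also passed in edgeR (adjusted p = 0.0193 and 0.00867). It did not pass with RLE size factors, no filter, the replicate block or the length trend removed. The symbol igfbp3 itself belongs to another gene, which had −0.37 for 1.13 against 16.3 ng/L and did not pass.

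The gene igfbp1 encodes a binding protein that in fish is raised by fasting and stress. Its reads were few. Libraries A, B and C had 22, 44 and 12 reads at 1.13 ng/L and 34, 8 and 42 at 1.57 ng/L, against 0, 1 and 0 at 16.3 ng/L. Solvent libraries had 17, 15 and 29 reads, 6.22 ng/L libraries 2 each, and 55.1 ng/L libraries 0, 13 and 2. Per library total, the reads at 1.13 ng/L were 67.9 times those at 16.3 ng/L, with an exact 95% interval of 11.8 to 2717 that covers counting error only. The edgeR adjusted p of that difference was 0.0235. Without 1.13 ng/L B or any 1 library of 16.3 ng/L the call was lost, with an edgeR adjusted p up to 0.105. It was also lost with the 2 groups fitted alone (edgeR adjusted p = 0.0633). At 16.3 ng/L igfbp1 had 0.00979 times the solvent reads per library total (exact 95% interval 0.000244 to 0.0567), and its edgeR adjusted p was 0.0568. It passed in DESeq2 (adjusted p = 0.00128) and in edgeR without 55.1 ng/L A or B (adjusted p = 0.0145 and 0.0238), and under no other setting. For 1.57 against 16.3 ng/L the edgeR adjusted p of igfbp1 was 0.0552, and it passed under the same settings only (DESeq2 adjusted p = 0.00273). The somatostatin gene LOC100136751 (synonym sst2), of the peptide family that restrains growth hormone release, had 0.111 ± 0.081 CPM at 1.13 ng/L, against 1.1 ± 0.408 CPM at 16.3 ng/L (SD, n = 3 each). It averaged 0.411 CPM in solvent and 0.304, 0.669 and 0.991 CPM at 1.57, 6.22 and 55.1 ng/L. Its 1.13 ng/L libraries had only 0.034 to 0.195 CPM, near the floor of counting. For 1.13 against 16.3 ng/L its log2 fold change was −3.23 (SE 0.69, edgeR adjusted p = 0.0178). That call was lost without 1.13 ng/L A or C, with an edgeR adjusted p up to 0.0607. It was also lost with the 2 groups fitted alone (edgeR adjusted p = 0.0763). At 16.3 ng/L against solvent the log2 fold change was 1.40 (edgeR adjusted p = 0.407).

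**Figure D4:**
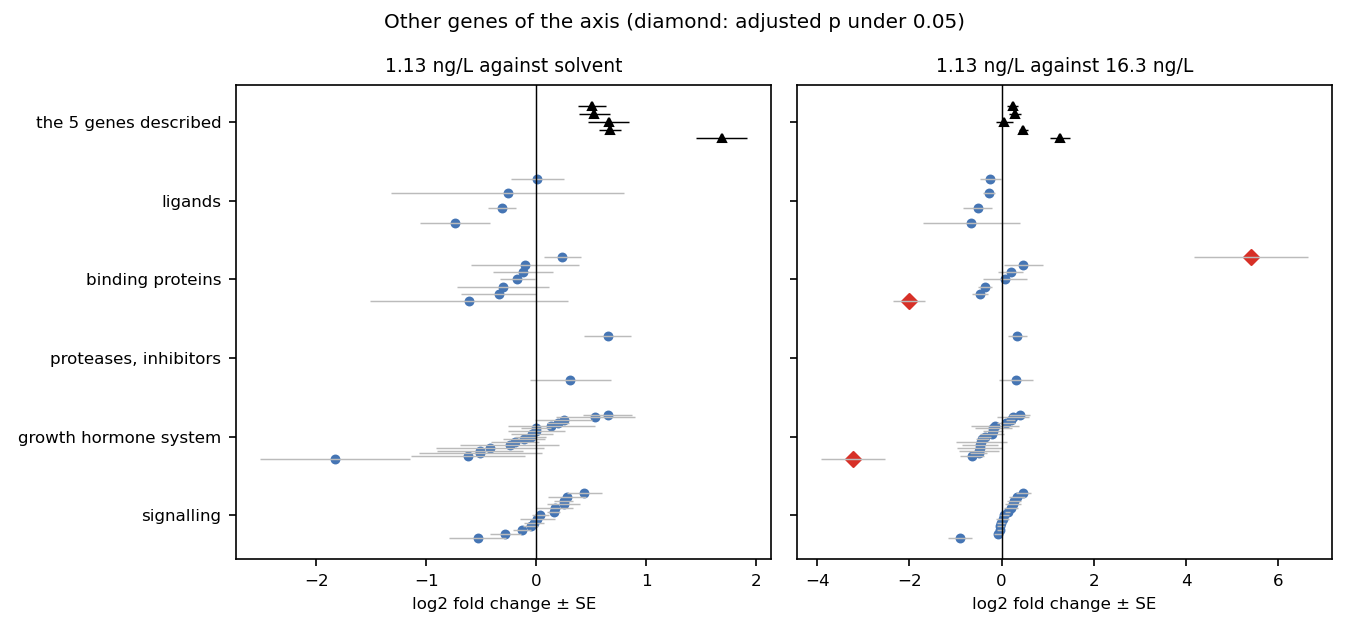
Log2 fold change ± SE (x axis, edgeR) of 43 other axis genes by role and of the 5 genes described (black triangles, no call shown), for 1.13 ng/L against solvent on the left and against 16.3 ng/L on the right. Diamonds mark an adjusted p under 0.05: none on the left, and igfbp1 (5.41), LOC100136304 (−2.01) and LOC100136751 (−3.23) on the right. The fitted value of igfbp1 rests on 1 read at 16.3 ng/L, and that of LOC100136751 on 0.034 to 0.195 CPM at 1.13 ng/L.

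Over the 18 libraries the summed markers of bone and cartilage went with all 5 genes. The Pearson correlation of log2 levels (r) was 0.97, 0.89, 0.66, 0.88 and 0.74 for igfbp7, igfbp5, igf2b, igf1ra and igf2r. With the other marker lists, r of igfbp7 ran from −0.85 (nerve) to 0.79 (liver). For igfbp5 and the bone and cartilage markers r was 0.83 within the 9 libraries of 1.13, 1.57 and 16.3 ng/L. Within the other 9 it was 0.03. The summed level of the 13 marker genes was 1449 to 2189 CPM in solvent libraries. It was 4195 to 6320, 4243 to 5528, 1783 to 2275, 2102 to 3350 and 1310 to 1892 CPM in the EE2 groups from low to high. Type I collagen genes weighed heavily in the sum. At 1.13 ng/L col1a1 and col1a1b averaged 1415 and 1854 CPM, beside a mean sum of 5435 CPM. Of these genes matn3a had no read in at least 1 library, and none was at 0 in all. Of the 13, edgeR called 10 higher at 1.13 ng/L and 8 at 1.57 ng/L against solvent, and 10 and 5 against 16.3 ng/L, beside 4.89, 2.85, 2.36 and 0.540% of all genes called higher. Their part in the results on the 5 genes was not tested. In RNA of whole animals, more cells of a type and more RNA per cell cannot be told apart. Markers of vessel and endothelium, where igfbp7 is also known, summed to 37.5 to 40.7 CPM in solvent and 41.6 to 43.7 and 33.9 to 40.5 CPM at 1.13 and 1.57 ng/L, and the median log2 fold change of the 10 genes against solvent was −0.02 and −0.11. Skeletal muscle markers summed to 9007 to 11068 CPM in solvent, 8089 to 9278 and 8832 to 10809 CPM at 1.13 and 1.57 ng/L, and 10225 to 15574, 10962 to 15508 and 13314 to 14224 CPM at the 3 higher concentrations from low to high. Liver markers summed to 1464 to 1938 CPM in solvent and 2165 to 2549 and 1850 to 2010 CPM at 1.13 and 1.57 ng/L, and epidermis markers to 1637 to 2711 CPM in solvent and 2147 to 3517 and 2964 to 4023 CPM at these concentrations. Erythrocyte markers summed to 375 to 475 CPM in solvent and 303 to 362 and 323 to 575 CPM at 1.13 and 1.57 ng/L, and nerve markers to 139 to 159 CPM in solvent and 87.9 to 111 and 99.2 to 126 CPM.

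The genes whose pattern over the 18 libraries was most like each of the 5 were picked from 5958 genes with a symbol by the Pearson correlation of log2 CPM. For igfbp7 they were col1a1 and col1a1b, both type I collagen chains (r = 0.97 each), and capn2, a calpain protease (r = 0.96). The level of col1a1 averaged 357 CPM in solvent and 1415, 1200, 418, 558 and 323 CPM in the EE2 groups from low to high. Within the 9 libraries of 1.13, 1.57 and 16.3 ng/L its r with igfbp7 was 0.95, within the other 9 it was 0.83, and with group means removed it was 0.80. The library of 16.3 ng/L with the highest igfbp7, B, also had the highest col1a1 of that group. For igfbp5 the most alike were styk1b, far1 and mthfd1l (r = 0.93 each), and with group means removed these fell to 0.37, 0.42 and 0.26. For igf2b they were mmp28, a matrix metalloproteinase, ldlrad3 and npepl1 (r = 0.88, 0.86 and 0.84). For igf1ra they were si:ch211-159i8.4, adamts15a, a secreted metalloproteinase, and serpine2, a protease inhibitor (r = 0.93, 0.93 and 0.91). For igf2r they were rnpepl1, cnppd1 and ctns, the lysosomal cystine transporter (r = 0.94, 0.90 and 0.89). The libraries of a group share their exposure, kind and depth, so these correlations are not independent observations. The alike genes were picked on these same 18 libraries, so their r within parts of them is no separate support.

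**Figure D5:**
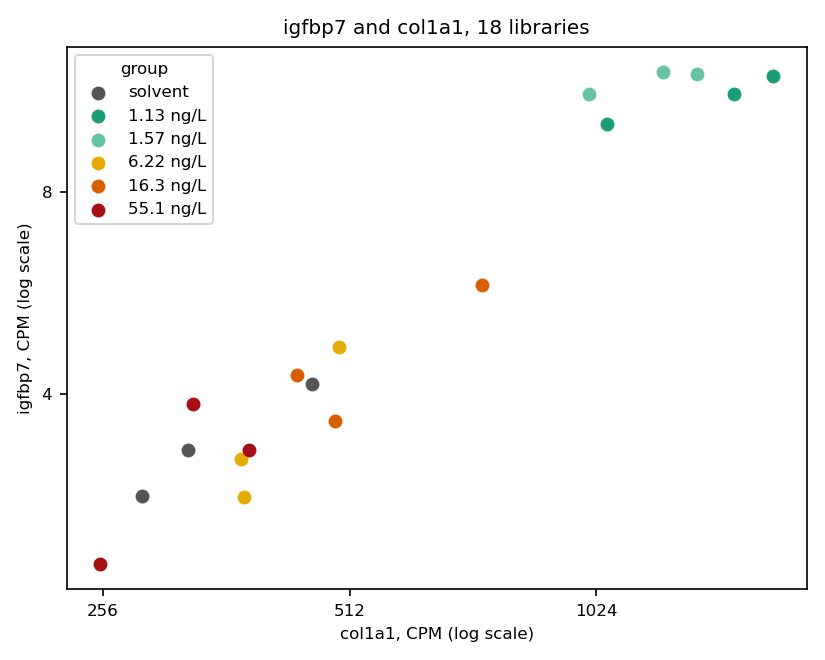
Level of igfbp7 (y axis) against col1a1 (x axis) in 18 libraries, both in CPM on log scales, coloured by group. The 6 libraries of 1.13 and 1.57 ng/L lie apart at the upper right, and within the other 12 the libraries with more col1a1 also tend to have more igfbp7.

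Among themselves the 5 genes were alike between groups more than within them. Over the 18 libraries r of log2 CPM was 0.91 between igfbp7 and igfbp5, 0.86 between igfbp7 and igf1ra and 0.85 between igfbp5 and igf1ra. The pair of igf2b and igf1ra had the lowest, 0.41. The 5 genes were chosen with their values known, so this likeness may follow from the choice and is no separate result. With group means removed all 10 pairs lay between −0.51 and 0.34, and igfbp7 with igfbp5 had 0.30. With the summed log2 level of bone and cartilage markers, igfbp7 kept an r of 0.78 after group means were removed, and igfbp5, igf2b, igf1ra and igf2r had 0.27, 0.38, 0.33 and 0.01. Type I collagen genes weigh heavily in that sum, so the 0.78 and the 0.80 of igfbp7 with col1a1 are not separate results. With epidermis markers igfbp7 had 0.63 after group means were removed. For igf2b the highest such value among the marker lists was 0.78, with liver markers. With the log2 library total, r over the 18 libraries was 0.87, 0.80, 0.75, 0.80 and 0.72 for igfbp7, igfbp5, igf2b, igf1ra and igf2r. The part of depth and fragment length in these levels was not tested.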

How the data were processed

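RNA of 18 pools was sequenced from polyadenylated, strand-specific libraries, per the labels' protocols. Trimmomatic 0.38, kallisto and DESeq2 are named in the submitters' processing notes; versions of kallisto and DESeq2, and the transcript set, are not given in the sources used here. The authors deposited, per transcript and library, estimated counts, TPM, length and effective length, per the file headers. Their 5 comparison tables hold deposited mean normalised counts (a signal scaled by library size), log2 fold changes with SE, and p-values.

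Estimated counts were summed by gene through the RefSeq gene table of USDA_OmykA_1.1, by accession without version: 42410 of 79244 transcripts matched, to 25139 genes, of which 6932 have a symbol, and 36834 stayed single. Sums were rounded to whole counts. CPM used TMM library sizes. The edgeR 4.0.16 quasi-likelihood test (R 4.3.3, filterByExpr) was fitted over all 18 libraries and 46999 features, with 12 residual degrees of freedom. It used Benjamini-Hochberg adjustment and a threshold of 0.05, and was tested on simulated data. DESeq2 1.42.0, other scalings and filters, a replicate block, 2-group fits, a loess trend on length, TPM ratios and leaving out each library were alternatives. Correlations used log2 CPM with a prior count of 2.

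Members and gene lists were chosen with earlier results of these data known. Named were the 5 genes; each axis gene past the threshold in any of 7 comparisons and, for a role with none, its 2 most expressed; esr1, zp2.3 and vtg3; summed marker lists; and, for each of the 5, the 3 most alike genes with a symbol and a mean of at least 1 CPM. Genes listed only by an ID are not in the lists, and reads of near copies may be divided between them. P-values measure the spread between pools, which may be technical. Counting limits apply: a library held 27 to 397 reads of igfbp7 and 43 to 209 of igf1ra.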

Additional observations from a re-analysis of the deposited data

How the results depend on the processing

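The 35 fold changes of the 5 genes (7 comparisons) moved by less than 1 SD of the libraries under RLE size factors, DESeq2, no filter on low counts, the replicate block and fits of the 2 groups alone. Removing the length trend moved 2, those of igf2r, to 0.24 at 1.13 ng/L and 0.12 at 1.57 ng/L. Leaving out 1 library moved 1 of 630, in igf2r at 6.22 ng/L, with a range of −0.27 to 0.0224. TPM ratios kept 16 of 35. TPM moved the median of all genes against solvent to 0.129, 0.0338, −0.198, −0.157 and −0.236 from low to high concentration, and to 0.295 and 0.184 for 1.13 and 1.57 against 16.3 ng/L. The TPM values are to be read relative to these medians. Under TPM, igfbp5 had 0.85 at 1.13 ng/L against solvent. At 6.22 ng/L, igfbp5, igf2b, igf1ra and igf2r had −0.35, −0.0814, −0.39 and −0.36. At 16.3 ng/L, igf2b, igf1ra and igf2r had 0.33, −0.0611 and 0.0320. At 55.1 ng/L, igfbp5, igf1ra and igf2r had −0.24, −0.39 and −0.20. For 1.13 against 16.3 ng/L, igfbp7, igfbp5, igf2b, igf1ra and igf2r had 1.56, 0.75, 0.35, 0.58 and 0.52, and for 1.57 against 16.3 ng/L igfbp5, igf1ra and igf2r had 0.69, 0.47 and 0.24.

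Counts of all genes past the threshold were 3787, 2006, 34, 172 and 175 against solvent from low to high, and 2023 and 355 for 1.13 and 1.57 against 16.3 ng/L. In the same order they were 6431, 4685, 329, 1068, 816, 4553 and 1642 with DESeq2, and 1624, 487, 15, 93, 59, 566 and 104 with the 2 groups alone, where fewer libraries estimate the spread. With the length trend removed, 35% of calls at 1.13 ng/L and 37.5% at 1.57 ng/L against solvent were higher, against 60.6 and 66.7% without that step, and 38.9 and 58.7% for 1.13 and 1.57 against 16.3 ng/L, against 54.8 and 71.5%. Leaving out 1 library gave 1350 to 3892 at 1.13 ng/L, 326 to 2481 at 1.57 ng/L, 97 to 301 at 16.3 ng/L and 87 to 188 at 55.1 ng/L. For 1.13 and 1.57 against 16.3 ng/L it gave 733 to 2211 and 106 to 395. Of the 43 other axis genes, DESeq2 called 2, 3 and 1 against solvent for 1.13, 16.3 and 55.1 ng/L, and 6 and 3 for 1.13 and 1.57 against 16.3 ng/L. The 2 groups alone gave 1 at 16.3 ng/L against solvent and 1 for 1.13 against 16.3 ng/L, and removing the length trend gave 2 at 1.13 ng/L. Removing the length trend moved no count of all genes by over 1.5 times. In the main fit 8.06% of all genes were called at 1.13 ng/L against solvent. The counts of axis genes are to be read beside those of all genes under the same setting, and nothing is concluded from them. DESeq2 was fitted on every feature with a count, not on the 46999 features of the main fit. Leaving out 1 library gave 0 to 1 at 1.13 ng/L, 0 to 2 at 1.57 ng/L, 0 to 2 at 16.3 ng/L, 0 to 1 at 55.1 ng/L, and 0 to 2 for 1.57 against 16.3 ng/L. Where no cause is given above, the cause was not tested. Libraries that share a letter did not deviate together over all genes (r of −0.0415 to 0.0451 over 45 pairs, with 7 of 18 libraries closest to their own letter). A pairing that acts on only some genes was not tested by these correlations. A replicate block on the letter moved no count by over 1.5 times and left the fold change of igfbp7 at 1.67 at 1.13 ng/L and 1.76 at 1.57 ng/L. Of the calls of the 5 genes, the block ended that of igf2b at 1.13 ng/L against solvent, and no other.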
